A study of Mus musculus with 6 samples.

Results

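Histones are the proteins around which DNA is wound, and most of their genes lie in a few dense clusters in the genome. The clustered histone genes described here are the 48 genes with a Hist1h, Hist2h, Hist3h or Hist4h name on a mouse microarray, out of 28312 named genes on it. They were chosen by name from all non-control probes, with 52 probes in all, and a gene was represented by its brightest tested probe. Of the 48 genes, 6 encode histone H1, 15 histone H2A, 11 histone H2B, 8 histone H3 and 8 histone H4. The Hist1 cluster held 35 of them (mouse chromosome 13), Hist2 held 9 (chromosome 3), Hist3 held 3 (chromosome 11) and Hist4 held 1 (chromosome 6). The names of 2 genes mark them as pseudogenes, Hist2h3c2-ps and Hist3h2bb-ps.

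RNA was measured on 6 single-colour arrays of myeloid cells, which are the innate immune cells that include monocytes and macrophages. Infarcted left ventricles gave 3 samples, called heart 1, heart 2 and heart 4, and spleens gave 3, called spleen 1, spleen 2 and spleen 4. All mice were C57BL/6N wild-type and at day 3 after acute myocardial infarction. The sorted cells stained strongly for CD45 and CD11b and weakly for CD45R/B220 (B cells), for CD90.2/Thy-1.2 (T cells), for NK-1.1 and CD49b/DX5 (natural killer cells) and for Ly6G (neutrophils). Every sample thus came from an infarcted mouse and no uninfarcted group was analysed here. The labels state that organs were analysed individually but not which organs came from the same animal, and p-values measure the spread between these samples. Itgam, which encodes CD11b, was well above background on all 6 arrays (log2 levels 4.18, 3.93 and 4.10 in heart and 3.77, 4.41 and 3.93 in spleen), as was Ptprc, which encodes CD45.

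The nucleosome core is built from H2A, H2B, H3 and H4, and the linker histone H1 binds the DNA where it enters and leaves the core. Most clustered histone genes are replication-dependent: their RNA is made in S phase, when DNA is copied, and ends in a short stem-loop, bound by the protein Slbp, in place of a poly(A) tail. Many, though not all, histone variants encoded outside the clusters are made through the cell cycle from ordinary polyadenylated RNA. Many clustered genes of the same type encode the same or nearly the same protein, so that their coding sequences, and the array probes within them, resemble each other.

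The probe sequences show how far the copies can be told apart. The probes of 6 H2A genes, Hist1h2af, Hist1h2ag, Hist1h2ah, Hist1h2ak, Hist1h2an and Hist2h2aa2, covered the same end of the coding sequence and were linked by at least 90% identity over 40 or more aligned bases. They are shown because the H2A values below rest on them. Capitals mark a base that differs from the most frequent base of the group at that aligned position, and coordinates are those of the array's annotation in the mouse build mm9.
Hist1h2af (chr13:23626113-23626172, plus strand): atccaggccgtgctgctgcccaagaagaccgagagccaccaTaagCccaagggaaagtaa
Hist1h2ag (chromosome 13, plus strand): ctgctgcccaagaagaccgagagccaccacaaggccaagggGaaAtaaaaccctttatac
Hist1h2ah (chr13:22127035-22127094, minus strand): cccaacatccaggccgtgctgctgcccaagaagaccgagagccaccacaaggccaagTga
Hist1h2ak (chr13:21845304-21845363, minus strand): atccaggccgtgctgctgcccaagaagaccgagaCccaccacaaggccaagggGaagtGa
Hist1h2an (chr13:21878695-21878754, minus strand): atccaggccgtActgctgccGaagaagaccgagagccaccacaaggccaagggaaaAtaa
Hist2h2aa2 (chr3:96049837-96049896, plus strand): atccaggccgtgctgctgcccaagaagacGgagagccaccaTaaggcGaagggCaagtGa
The annotation gave the Hist1h2ag probe a span of 59681 bases, so its position is not given. Each probe differed from the group's most frequent letters at between 1 and 5 positions. Hist1h2af shared 55 of 60 bases with Hist1h2ak, Hist1h2an and Hist2h2aa2, and the 6 genes are not 6 separate measurements.

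Other probes lay in the 3′ untranslated region, at or over the stem-loop itself. The letters GGCTCTT, 3 loop bases and AGAGCC were found whole in 5 of the 48 representative probes, and at least 11 of the 16 letters stood at the end of a further 2. In Hist1h2ab they stand at the 3′ end of the probe. In Hist1h2ae they stand at its 5′ end, so most of that probe lies beyond the stem-loop. Windows of 30 bases around them are shown, with the stem-loop letters in capitals, because replication-dependent histone RNA ends just beyond these letters. Longer, polyadenylated RNA that reads through them would match the same probes.
Hist1h3a: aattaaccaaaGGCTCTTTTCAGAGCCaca
Hist1h3g: cactttaaaGGCTCTTCTTAGAGCCaccca
Hist1h3i: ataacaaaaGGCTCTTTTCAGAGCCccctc
Hist2h2aa1: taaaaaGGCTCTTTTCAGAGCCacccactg
Hist2h2bb: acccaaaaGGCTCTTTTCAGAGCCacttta
Hist1h2ab: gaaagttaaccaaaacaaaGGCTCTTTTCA
Hist1h2ae: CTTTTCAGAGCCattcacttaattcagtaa
The array's annotation listed more than 1 gene for the representative probes of 12 members. The Hist1h3d probe, for example, was listed under 4 genes, with the current symbols H3c2, H3c4, H3c6 and H3c11, and H3c11 is the present symbol of Hist1h3i, which also had a probe of its own.

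Levels are log2 processed intensities with each array's 75th percentile set to 0. Signal depends on the probe as well as the RNA, so levels are compared between arrays for the same probe. A gene was tested where the scanner program marked its probe as well above background on every array of 1 tissue or both, as for 43 members. Members well above background numbered 42, 36 and 40 of 48 in heart 1, heart 2 and heart 4, and 46, 45 and 43 in spleen 1, spleen 2 and spleen 4. The 5 untested members were Hist1h1d and Hist1h1t, well above background on no array, Hist2h2ab on 1 spleen array, Hist1h2al on 1 heart and 2 spleen arrays, and Hist2h2bb on 2 spleen arrays.

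Clustered histone RNA was mostly lower in the heart cells than in the spleen cells. Of the 43 tested members, 35 had a negative log2 fold change (heart minus spleen), and the median was −1.18, with a range from −3.85 to 0.92. The lowest fitted value, −3.85, is that of Hist1h2ac, for which only a bound can be given, and the median is also −1.18 with that gene at its bound. Over all 16365 genes tested the median was 0.10, and 42.0% had a negative value. Of the 43, 7 passed the filter on low signals through the spleen arrays only, being dim on at least 1 heart array, so a low heart level is partly set by the filter, and all 7 were negative. Among the 36 members well above background on all 6 arrays, 28 were negative and the median was −1.09, against 40% and 0.12 over all genes so filtered. All 3 heart values lay below all 3 spleen values in 28 members (65.1%), against 16.6% of all genes tested, and above them in 4 members (9.3%), against 24.1%. In the remaining 11 the tissues overlapped. In bulk samples, fewer cells that express a gene and less RNA per cell cannot be told apart.

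With limma and Benjamini-Hochberg adjustment over all genes tested, 9 members were called lower in heart (20.9%), against 6.52% of all genes tested, and 2 were called higher (4.65%), against 8.88%. The 9 were Hist1h1a, Hist1h1c, Hist1h2ab, Hist1h2ac, Hist1h2ba, Hist1h2bb, Hist1h2bm, Hist1h3i and Hist1h4c, all in the Hist1 cluster, and the 2 were Hist2h2be and Hist1h3d. Hist1h2ab and Hist1h2ac passed the filter through spleen only; with the filter on all 6 arrays, 7 of 36 members were called lower and 2 higher, against 5.66% and 8.82% of all genes. At an unadjusted p under 0.05, 28 of 43 were lower and 3 higher, against 13.7% and 17.9% of all genes tested. Without spleen 4, 26 members were called lower and 3 higher, and the 11 calls were all among them, while 25% of all genes tested were then called. Without heart 1, heart 2 or heart 4, 1, 1 and 0 members were called, while the share of all genes called was 2.71%, 2.91% and 3.07%. Without spleen 1 the calls were 3 lower and 2 higher, with 16.4% of all genes called, and without spleen 2 they were 2 lower and 1 higher, with 11.2%. The 6 H2A genes with near-identical probes and the pair Hist1h4d and Hist1h4j each share sequence between members. Among the other 35 tested members, 9 were called lower, 2 were called higher and 27 had a negative fold change, with a median of −0.94. These 35 are not free of shared sequence, since only probes past the 90% limit were set apart. Hist2h2ac shares an unbroken run of 42 bases with Hist1h2ah, and Hist1h3c a run of 36 with Hist1h3f. The Hist1h4c probe is 86.5% identical to that of Hist1h4d over 52 aligned bases.

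**Figure D1:**
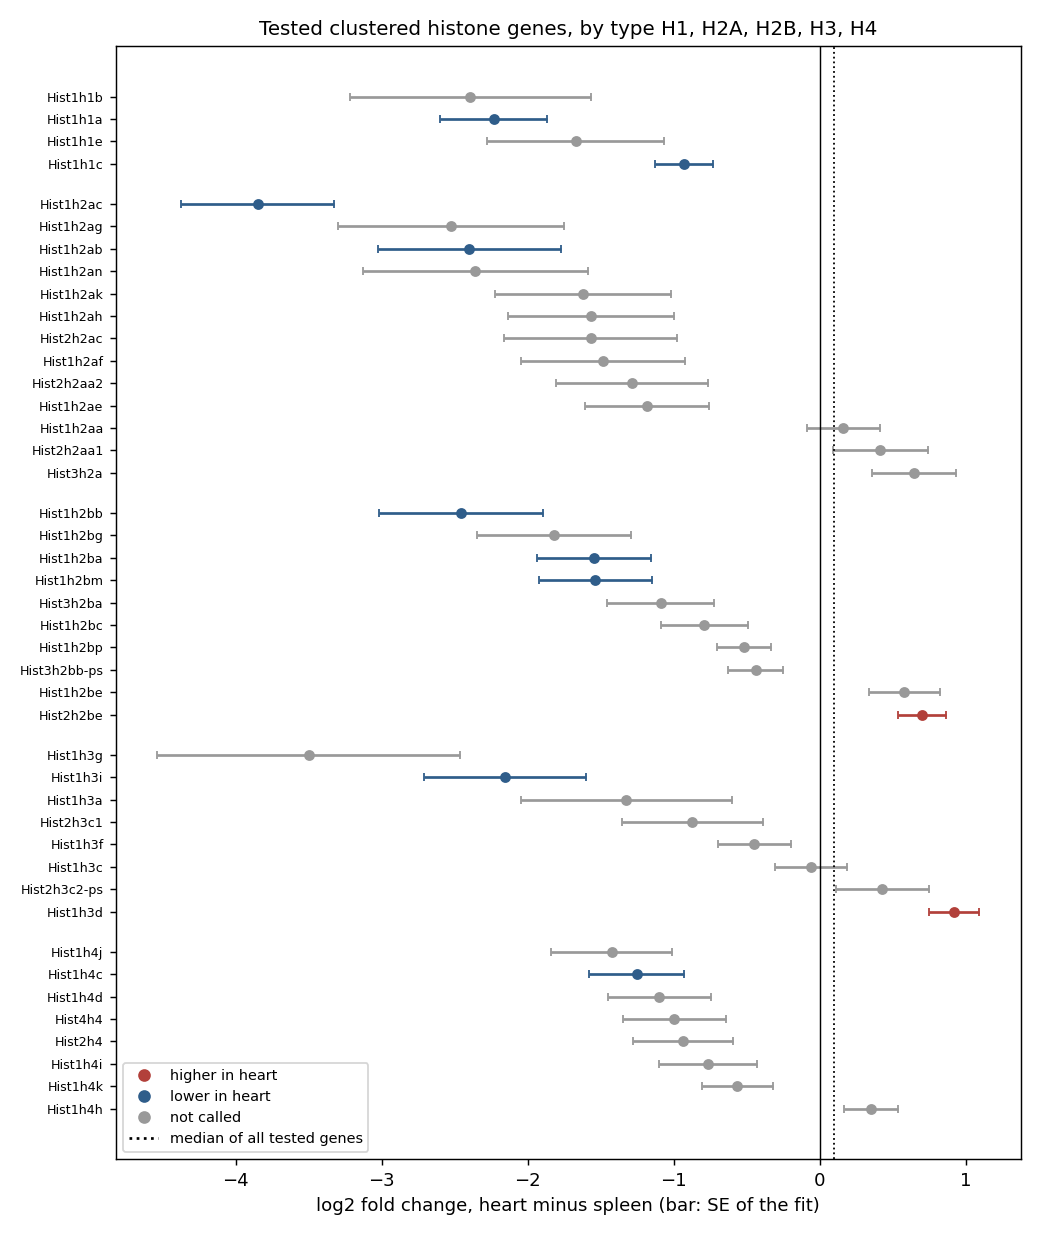
Log2 fold change, heart minus spleen, of the 43 tested clustered histone genes, a row for each gene, grouped from top to bottom as H1, H2A, H2B, H3 and H4; bars are the SE of the fit, red and blue points are genes called higher and lower in heart, and the dotted line is the median of all tested genes at 0.10. Most points lie left of 0, down to the fitted −3.85 for Hist1h2ac, which was above background in spleen only, and the rightmost is Hist1h3d at 0.92.

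The spleen samples differed among themselves more than the heart samples did. The median SD over members was 0.19 log2 units in heart and 0.71 in spleen, against 0.14 in heart and 0.41 in spleen over all genes tested. Spleen 4 was the lowest spleen sample in 32 of the 43 members, against 26.1% of all genes tested, and spleen 2 the highest in 31, against 31.2%. The median level of the tested members was −1.14, −1.22 and −1.32 in heart 1, heart 2 and heart 4, and 0.20, 0.36 and −0.56 in spleen 1, spleen 2 and spleen 4. Spleen 4 thus lay between the hearts and the other spleens.

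Slide and tissue were partly confounded, since spleen 1 and spleen 2 shared a slide, heart 2 and heart 4 shared another, and only the slide of heart 1 and spleen 4 held both tissues. On that slide heart 1 was lower than spleen 4 in 32 of 43 members, with a median difference of −0.23, against 49.4% of all genes tested and a median of 0.01. With slide as a block, 0 members and 0.519% of all genes were called by limma. At an unadjusted p under 0.05, 5 members were then lower and 1 higher, against 8.34% and 9.21% of all genes. The titles give numbers 1 and 2 an earlier date than number 4. Heart minus spleen was negative in 34 members at each date, with a median of −1.49 at the earlier date (0.16 over all genes) and −0.38 at the later date (−0.03 over all genes), where each tissue had 1 sample.

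**Figure D2:**
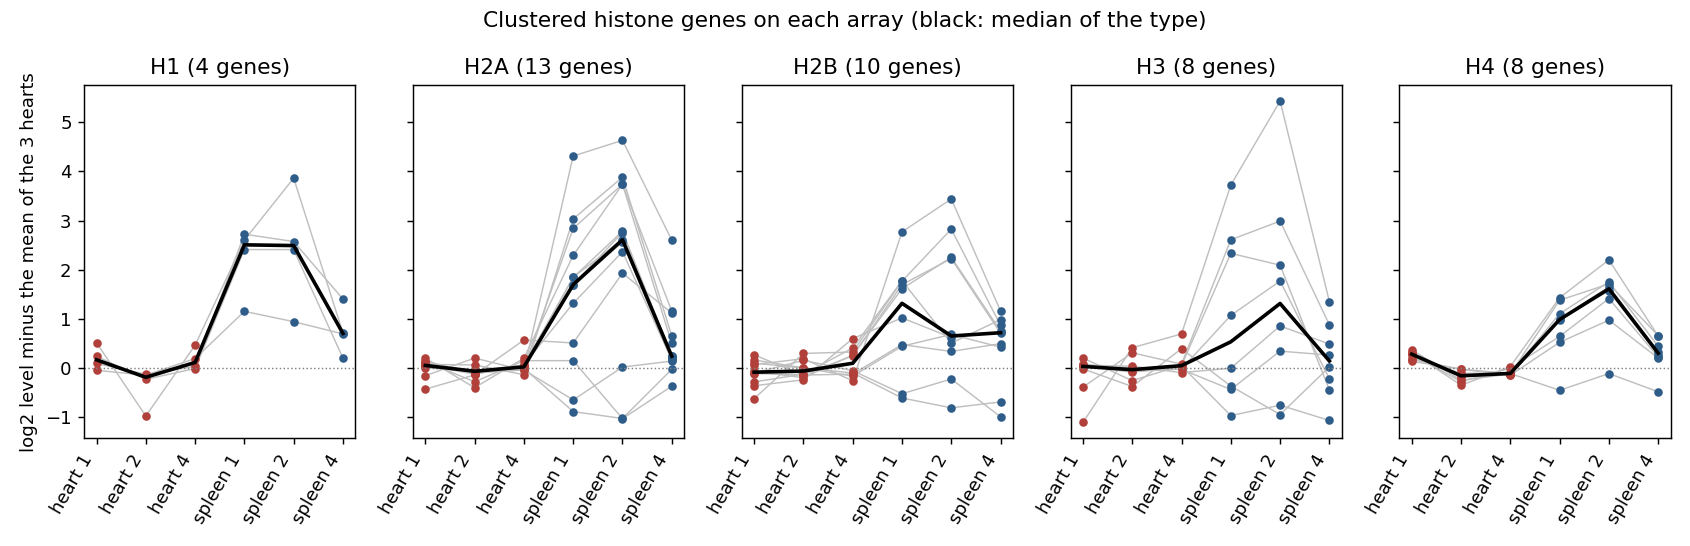
Log2 level of each tested member on each array, minus the mean of its 3 heart values, in panels by histone type; grey lines are genes, red points are heart arrays, blue points are spleen arrays and the black line is the median of the type. Values in spleen 1 and spleen 2 reach furthest above the hearts, and spleen 4 lies closer to them.

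Among linker histone H1 genes, 2 of 4 tested members were called lower in heart, all 4 had a negative log2 fold change, and the median was −1.95. Of all genes tested, 6.52% were called lower and 42.0% had a negative value. Hist1h1a (mm9 chromosome 13, 23855888 to 23855947) had levels of −3.78, −4.0 and −3.84 in heart and −1.15, −1.30 and −2.47 in spleen. All hearts lay below all spleens, and the log2 fold change was −2.23 ± 0.37 (SE, limma adjusted p = 0.0145). Hist1h1c (mm9 chromosome 13, 23832018 to 23832077) had levels of 1.63, 1.53 and 1.87 in heart and 2.83, 2.62 and 2.37 in spleen. Its spleen values were close together and again all above the hearts, with a log2 fold change of −0.93 ± 0.20 (SE, limma adjusted p = 0.0294). Hist1h1e levels were −1.97, −2.44 and −2.22 in heart and 0.20, 0.20 and −2.01 in spleen. Spleen 4 fell within the range of the hearts there, and the gene was not called (log2 fold change −1.67 ± 0.61, SE, limma adjusted p = 0.117).

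H2A genes had a median log2 fold change of −1.57 over 13 tested members, of which 2 were called lower and 0 higher, and 10 lower and 0 higher at an unadjusted p under 0.05. The shares over all genes tested were 6.52% and 8.88% called, and 13.7% and 17.9% at that unadjusted p. The 2 called, Hist1h2ab and Hist1h2ac, both passed the filter on low signals through the spleen arrays only. A low heart level is thus partly set by the filter in both. Hist1h2ac (mm9 chromosome 13, 23773343 to 23773402) was on no heart array well above background, at −7.07, −6.71 and −6.96, and had −2.60, −2.28 and −4.31 in spleen. It was at least 3.53-fold lower in heart, a bound that sets each heart array at the lowest signal well above background on it. The limma adjusted p of 0.00846 comes from the fit on the measured heart signals, which lie below that level. Its probe starts 2426 bases into the transcript, far beyond the coding sequence of a histone. Hist1h2ab, with a probe at the stem-loop (mm9 chromosome 13, 23843392 to 23843451), had −3.96, −4.56 and −3.96 in heart, where 2 of 3 arrays were well above background, and −1.87, −0.42 and −3.0 in spleen. Hearts and spleens did not overlap, with a log2 fold change of −2.40 ± 0.63 (SE, limma adjusted p = 0.0485). All its heart values lay above the lowest signal well above background on their arrays, so that level as a floor could not change the value.

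The H2A genes with near-identical coding-end probes had their spleens in the same order, spleen 2 highest and spleen 4 lowest, all above the hearts. Hist1h2af had levels of 5.28, 5.17 and 5.26 in heart and 6.92, 7.80 and 5.44 in spleen. Spleen 1 and spleen 2 stood well above the hearts and spleen 4 only just above them. Hist1h2ah had 5.35, 5.24 and 5.31 in heart and 7.15, 7.91 and 5.54 in spleen. Hist2h2aa2 had 5.39, 5.21 and 5.40 in heart and 6.65, 7.70 and 5.50 in spleen. Of the 6 genes none was called, although no heart value of theirs reached a spleen value: their log2 fold changes ran from −2.52 to −1.28, and the limma adjusted p from 0.0776 (Hist1h2ag) to 0.151 (Hist2h2aa2). The spread between the spleens was large beside the difference, with a SD of 1.19 log2 units for Hist1h2af in spleen and 0.06 in heart. Without spleen 4, Hist1h2af, Hist1h2ah and Hist2h2aa2 were all called.

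**Figure D3:**
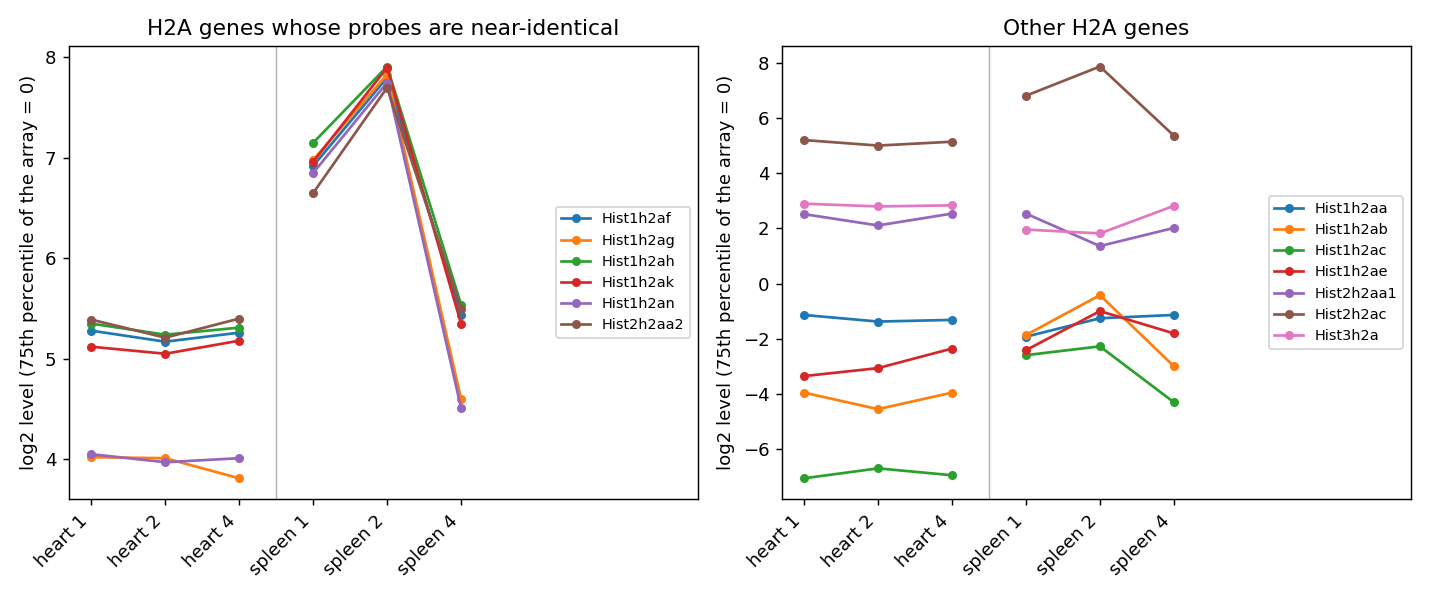
Log2 levels of the 6 H2A genes with near-identical probes (left) and of the other 7 tested H2A genes (right) on each array, hearts before spleens, with lines joining the arrays of a tissue. At left every line is highest in spleen 2, between 7.70 and 7.91, and lowest in the hearts, between 3.81 and 5.40; at right the lines differ in shape, and Hist3h2a and Hist2h2aa1 are not lower in heart.

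The Hist2h2ac probe covers the same coding end but shares at most 44 of 57 bases, aligned without gaps, with the group (Hist1h2ah). An unbroken run of 42 bases is the same in those 2 probes. Hist2h2ac had 5.21, 5.01 and 5.15 in heart and 6.82, 7.88 and 5.37 in spleen. H2afj, which encodes the H2A variant H2A.J outside the clusters, has a probe that matches the Hist2h2ac probe at 45 of 50 aligned bases and was picked for that likeness. Its levels were 5.63, 5.47 and 5.66 in heart and 6.92, 7.91 and 5.84 in spleen, with the spleens in the same order. Whether these probes bind each other's RNA was not tested. The H2A members with a positive fold change, none of them called, were Hist1h2aa at 0.16, Hist2h2aa1 at 0.42 and Hist3h2a at 0.65.

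In H2B genes, 8 of 10 tested members had all hearts below all spleens and the other 2 had all hearts above, with 3 called lower and 1 called higher. Among all genes tested, 16.6% had all hearts below and 24.1% all hearts above, with 6.52% called lower and 8.88% higher. The median log2 fold change was −0.94. Hist1h2bb (mm9 chromosome 13, 23838639 to 23838698) had levels of −4.02, −3.90 and −4.35 in heart and −1.32, −0.65 and −2.93 in spleen. Its log2 fold change was −2.46 ± 0.56 (SE, limma adjusted p = 0.034), the furthest below 0 among the H2B genes. Hist1h2ba, known as the testis form of H2B (mm9 chromosome 13, 24025811 to 24025870), had 1.0, 0.98 and 1.36 in heart and 2.81, 3.34 and 1.82 in spleen. Hist1h2bm (mm9 chromosome 13, 21814057 to 21814116) had 1.30, 1.17 and 1.63 in heart and 2.98, 3.62 and 2.12 in spleen. Both were called, with log2 fold changes of −1.55 ± 0.39 and −1.54 ± 0.39 (SE, limma adjusted p = 0.0452 and 0.0446) and the samples in the same order. The Hist1h2bm probe was listed under 4 H2B genes.

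Hist2h2be went the other way. Its probe (mm9 chromosome 3, 96026893 to 96026952) starts 1849 bases into the transcript and had levels of −1.23, −1.33 and −1.43 in heart and −1.94, −2.14 and −2.02 in spleen. The samples of each tissue were close together, spleen 4 included, and the log2 fold change was 0.70 ± 0.17 (SE, limma adjusted p = 0.0369). Hist1h2be, with a probe 2375 bases into its transcript, also had all hearts above all spleens, with a log2 fold change of 0.58 ± 0.24 (SE, limma adjusted p = 0.158), and was not called. Hist1h2bc had 0.50, 0.62 and 1.46 in heart and 1.88, 1.48 and 1.59 in spleen, where heart 4 lay just below the lowest spleen, and was not called (log2 fold change −0.79 ± 0.30, SE, limma adjusted p = 0.126).

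Of 8 tested H3 genes, 1 was called lower and 1 higher, 6 had a negative log2 fold change, 5 overlapped between the tissues, and the median was −0.66. A single gene of 8 is near the shares over all genes tested, 6.52% called lower and 8.88% called higher. Hist1h3d (mm9 chromosome 13, 23667979 to 23668038) had levels of 6.39, 6.26 and 6.39 in heart and 5.38, 5.59 and 5.28 in spleen. Every heart lay above every spleen, with a log2 fold change of 0.92 ± 0.17 (SE, limma adjusted p = 0.02). Hist1h3i, measured by a probe over the stem-loop (mm9 chromosome 13, 21874784 to 21874843), had −4.86, −4.16 and −4.39 in heart and −1.86, −1.48 and −3.59 in spleen. Its log2 fold change was −2.16 ± 0.55 (SE, limma adjusted p = 0.0468). The probe that called Hist1h3d higher is thus also annotated to Hist1h3i, whose own probe was called lower.

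Among the other H3 genes, Hist1h3g, whose probe also covers the stem-loop, had −6.35, −4.83 and −4.55 in heart and −1.52, 0.19 and −3.89 in spleen. The hearts lay below the spleens, but heart was well above background on 1 array only and the spleens lay far apart. Its log2 fold change was −3.50 ± 1.04 (SE, limma adjusted p = 0.0702), and −3.02 with the dim arrays held at their floor. Hist1h3c had 3.98, 3.96 and 3.93 in heart and 3.52, 4.30 and 4.22 in spleen, and Hist1h3f had 2.01, 1.99 and 1.86 in heart and 1.95, 2.81 and 2.44 in spleen. Both overlapped between the tissues and were not called, with log2 fold changes of −0.06 ± 0.25 and −0.45 ± 0.25 (SE, limma adjusted p = 0.905 and 0.277).

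Of 8 tested H4 genes, 1 was called lower in heart, and 7 had log2 fold changes within a narrow range, between −1.42 and −0.56. That 1 call is near the 6.52% called lower over all genes tested. All 8 had their lowest spleen value in spleen 4 and their highest in spleen 2. Hist1h4c (mm9 chromosome 13, 23790223 to 23790282) had levels of −0.84, −1.46 and −1.33 in heart and 0.17, 0.50 and −0.55 in spleen. Hearts lay below spleens, with a log2 fold change of −1.25 ± 0.32 (SE, limma adjusted p = 0.0473). Hist1h4i had 2.29, 1.73 and 2.0 in heart and 2.65, 3.42 and 2.23 in spleen, where heart 1 passed spleen 4. Hist1h4k had 2.14, 1.94 and 1.82 in heart and 2.49, 2.94 and 2.17 in spleen. Hist2h4 had 1.18, 0.86 and 0.86 in heart and 1.94, 2.54 and 1.24 in spleen. These 3 were not called, with limma adjusted p of 0.177, 0.172 and 0.119. Hist1h4h was the exception, with all hearts above all spleens and a log2 fold change of 0.35 ± 0.19 (SE, limma adjusted p = 0.255).

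In 4 genes a second probe was tested. For Hist1h2ak, Hist1h4k and Hist2h4 the second probe lay nearer the start of the transcript and its log2 fold change was further below 0, at −3.02, −1.12 and −1.56, against −1.62, −0.56 and −0.94 for the brighter probe. For Hist1h4i the second probe starts 483 bases into the transcript, against 23 for the brighter one, and the signs differed. It had 1.87, 1.77 and 1.66 in heart and 1.25, 1.87 and 1.47 in spleen, a log2 fold change of 0.24, against −0.77 for the probe in the coding part, and neither was called.

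A division by where the probe lies was made after the values were seen. The 7 probes with stem-loop letters gave 6 tested genes, among them Hist1h2ae, whose probe lies mostly beyond the stem-loop. Of these 2 were called lower, 0 higher, and all hearts lay below all spleens in 3. The median log2 fold change was −1.74, with a range from −3.50 to 0.42. Over all genes tested, 6.52% were called lower, 8.88% higher, and 16.6% had all hearts below all spleens. Hist1h2ab, which was called, Hist1h3a and Hist1h3g passed the filter through spleen only, so their low heart levels are partly set by it. The positive value was that of Hist2h2aa1, with 2.52, 2.11 and 2.54 in heart and 2.54, 1.36 and 2.02 in spleen, which overlapped. Probes starting over 1000 bases into the transcript represented 5 genes, of which 4 were tested. Among those called, Hist1h1c and Hist1h2ac were lower, the latter having passed the filter through spleen only, and Hist2h2be was higher. Hist1h2be was not called.

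By cluster, the median log2 fold change was −1.45 over 32 tested Hist1 genes and −0.87 over 7 tested Hist2 genes. Of the Hist1 genes 9 were called lower and 1 higher, and of the Hist2 genes 0 were called lower and 1 higher, with 3 lower and 1 higher at an unadjusted p under 0.05. For all genes tested the shares were 6.52% and 8.88% called, and 13.7% and 17.9% at that unadjusted p. The 3 tested Hist3 genes had a median of −0.44 and the Hist4 gene, Hist4h4, had −1.0, and none of them was called by limma. No test of a difference between clusters or types was made.

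Upstream sequence was read from RefSeq promoters of the GRCm38.p6 assembly, which held 41 of the 48 members. In the 250 bases before the start, on either strand, the octamer ATTTGCAT, which is bound by Pou2f1 and is known from H2B promoters, was found in 6 of 8 H2B and 7 of 14 H2A genes. It was found in 0 of 6 H1, 0 of 6 H3 and 0 of 7 H4 genes, and in 1.8% of all 27025 genes with a promoter. The box AAACACA, known from H1 promoters, was found in 5 of 6 H1 genes, against 7.2% of all. It was also found in 2 of 8 H2B and 2 of 14 H2A genes, and in 0 H3 and 0 H4 genes. CCAAT was found in 34 of the 41 members (82.9%), against 37.5% of all, and TATAA in 27 (65.9%), against 25.8%. The types differed: CCAAT was in every H1, H2A and H2B gene but in only 2 of 7 H4 genes (28.6%), and TATAA in 2 of 6 H3 genes (33.3%). Some windows overlap, such as those of the neighbours Hist1h2aa and Hist1h2ba, so that 1 match can count for both genes. These letters were not searched for overlap with each other, and a match is a description of the window only.

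The upstream windows of Hist1h2bb and Hist1h1c, which were both called lower, are shown with these letters in capitals.
Hist1h2bb (GRCm38.p6 chr13:23746484-23746733, plus strand): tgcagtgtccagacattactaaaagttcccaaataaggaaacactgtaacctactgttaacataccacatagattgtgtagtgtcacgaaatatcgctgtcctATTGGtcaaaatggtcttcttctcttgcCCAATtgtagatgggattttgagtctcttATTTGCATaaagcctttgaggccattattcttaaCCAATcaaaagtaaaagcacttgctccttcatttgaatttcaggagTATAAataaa
Hist1h1c (GRCm38.p6 chr13:23738557-23738806, plus strand): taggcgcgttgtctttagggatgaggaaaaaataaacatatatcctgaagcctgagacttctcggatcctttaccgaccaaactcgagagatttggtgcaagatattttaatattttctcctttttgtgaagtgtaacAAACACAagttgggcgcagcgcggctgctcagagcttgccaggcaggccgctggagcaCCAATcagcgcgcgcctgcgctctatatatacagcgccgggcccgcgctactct
ATTGG in the Hist1h2bb window is CCAAT on the other strand.

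Of 12 tested histone genes outside the clusters, 1 was called lower and 1 higher, near the shares over all genes, 6 had a negative log2 fold change, and the median was −0.09. The difference from the clustered genes was not tested. H2afv, which encodes a form of the H2A.Z variant, had 3.17, 3.34 and 3.56 in heart and 4.78, 5.99 and 4.44 in spleen (log2 fold change −1.71 ± 0.41, SE, limma adjusted p = 0.0383). H3f3b, which encodes the replacement histone H3.3, had 5.98, 6.01 and 6.22 in heart and 4.96, 5.15 and 5.18 in spleen (log2 fold change 0.97 ± 0.17, SE, limma adjusted p = 0.0175). H2afz, the other H2A.Z gene, had 6.25, 6.31 and 6.49 in heart and 6.49, 7.17 and 6.61 in spleen and was not called (log2 fold change −0.41 ± 0.23, SE, limma adjusted p = 0.279).

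The machinery that makes and processes histone RNA was not called in either direction. Of 20 tested genes 0 were called by limma, and 1 was lower and 1 higher at an unadjusted p under 0.05, with a median log2 fold change of −0.14. The shares over all genes tested were 6.52% called lower and 8.88% higher, and 13.7% and 17.9% at that unadjusted p. Slbp had 0.68, 0.74 and 0.67 in heart and 1.01, 1.98 and −0.33 in spleen, so that the spleens lay on both sides of the hearts, and is named here for its role. Snrpg, a small nuclear ribonucleoprotein subunit, had a log2 fold change of −0.10 ± 0.16 (SE, limma adjusted p = 0.724).

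Among histone chaperones, the proteins that carry histones to DNA, 3 of 22 tested genes were called lower and 1 higher, with a median log2 fold change of −0.43. Over all genes tested, 6.52% were called lower and 8.88% higher. Of the 21 chaperones well above background on all 6 arrays, 2 were called lower and 1 higher, with a median of −0.41. These counts are near the shares over all genes so filtered, 5.66% and 8.82%. Asf1b had −2.20, −2.0 and −2.06 in heart and 2.38, 4.0 and 0.62 in spleen (log2 fold change −4.42 ± 0.78, SE, limma adjusted p = 0.0175). Chaf1a, the large subunit of chromatin assembly factor 1, had −4.75, −4.39 and −4.53 in heart and −0.40, 0.83 and −2.51 in spleen (log2 fold change −3.86 ± 0.78, SE, limma adjusted p = 0.0245). Both had the spleens in the order seen in most clustered histone genes, spleen 2 highest and spleen 4 lowest. Tonsl was also called lower, but it stood well above background in no heart sample and passed the filter through spleen only. Ipo4, an importin, was called higher at 1.38 ± 0.26 (SE, limma adjusted p = 0.0197). Tonsl and Ipo4 were named after their values were seen. Nap1l1 was not called (log2 fold change −0.25 ± 0.17, SE, limma adjusted p = 0.363).

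Of 30 tested S-phase genes, 12 were called lower in heart and 1 higher, 29 had a negative log2 fold change, and the median was −1.68. Cdc6, among the 12, stood well above background in no heart sample and passed the filter through spleen only. Of the 29 genes well above background on all 6 arrays, 11 were called lower and 1 higher, with a median of −1.68. The shares called lower and higher were 6.52% and 8.88% of all genes tested, and 5.66% and 8.82% of all genes so filtered. Rrm2, a ribonucleotide reductase subunit that supplies DNA building blocks, had −2.55, −1.76 and −2.14 in heart and 3.65, 4.92 and 1.43 in spleen. Its log2 fold change was −5.49 ± 0.83 (SE, limma adjusted p = 0.0116), and Ccna2, which encodes cyclin A2, had −5.25 ± 0.90 (SE, limma adjusted p = 0.0165). Pcna, the sliding clamp of DNA replication, had 3.62, 3.64 and 3.60 in heart and 3.67, 4.34 and 3.22 in spleen and was not called (limma adjusted p = 0.815). Tyms, thymidylate synthase, was the gene called higher, at 1.31 ± 0.29 (SE, limma adjusted p = 0.0314), named after its value was seen.

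Genes of G2 and mitosis were called lower in 13 of 15 tested members, with a median log2 fold change of −4.57. Of the 8 well above background on all 6 arrays, 7 were called lower, with a median of −4.55, and Aurka was not called (limma adjusted p = 0.142). The shares called lower were 6.52% of all genes tested and 5.66% of all genes so filtered. Kif11 and Nusap1, both of the mitotic spindle, stood well above background in no heart sample and passed the filter through spleen only, so no fold or p is given for them. The summed level of the list, on a linear scale where the 75th percentile of an array is 1, was 1.98 to 2.91 in heart and 60.2, 167 and 14.2 in spleen 1, spleen 2 and spleen 4. That of the S-phase list was 43 to 46.3 in heart and 141, 259 and 65.9 in the same spleens. The order of the spleens in both sums was the one seen in most clustered histone genes. The part of cycling cells in the histone values was not tested.

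**Figure D4:**
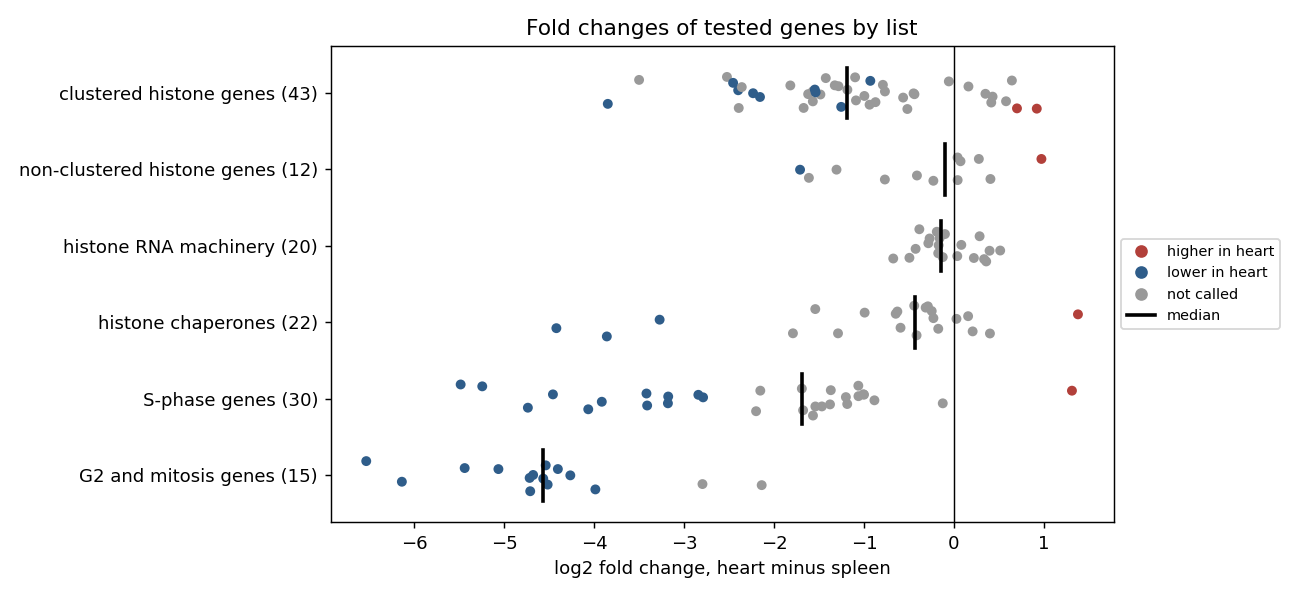
Log2 fold change, heart minus spleen, of tested genes in 6 lists, a point for each gene with the number tested in brackets; red and blue points are genes called higher and lower in heart and black bars are medians. The median of the clustered histone genes, −1.18, lies between that of the non-clustered histone genes, −0.09, and that of the S-phase genes, −1.68; points are spread vertically only to keep them apart.

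Markers of other cell types also differed between the samples, and their part in the histone values was not tested. Summed levels of granulocyte precursor markers were 154 to 212 in heart and 716, 1310 and 502 in spleen 1, spleen 2 and spleen 4, with 10 of 14 tested markers called lower and 0 higher. Over all genes tested, 6.52% were called lower and 8.88% higher, and 13.7% were lower at an unadjusted p under 0.05. Of the 12 granulocyte precursor markers well above background on all 6 arrays, 8 were called lower, against 5.66% of all genes so filtered. Most of each heart sum came from 1 marker, Chi3l3. Its log2 levels were 7.44, 7.06 and 7.58 in heart and 7.32, 7.97 and 7.77 in spleen, and it was not called (limma adjusted p = 0.418). Erythroid markers summed to 11 to 48.7 in heart and 231, 29 and 11.7 in spleen, with 0 of 9 called by limma and 2 lower at an unadjusted p under 0.05. Hba-a1, at log2 levels of 4.97, 5.28 and 2.98 in heart, made up most of each heart sum of that list. B cell markers summed to 2.92 to 3.28 in heart and 126, 6.49 and 5.06 in spleen, with 0 of 7 called and 4 lower at an unadjusted p under 0.05. T and NK cell markers summed to 8.58 to 10.5 in heart and 114, 20.8 and 12.6 in spleen. Of 7 tested, 1, Gzma, was called lower, and 5 were lower at an unadjusted p under 0.05. Cd4 made up most of each heart sum of that list and was not called (limma adjusted p = 0.697). Erythroid and lymphoid markers were thus highest in spleen 1, whereas the granulocyte precursor list, like 31 of the 43 clustered histone genes, was highest in spleen 2. Monocyte and macrophage markers summed to 688 to 749 in heart and 282, 515 and 610 in spleen, with 3 of 12 called higher. Cd14, among the 3, had log2 levels of 7.40, 7.46 and 7.46 in heart and 1.18, 1.79 and 2.92 in spleen. Hearts lacked 1 of the granulocyte precursor, 6 of the erythroid, 3 of the B cell and 5 of the T and NK cell markers, in the sense that these stood well above background in none of the 3.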

How the data were processed

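Per the file headers, each spot has a linear-scale intensity, corrected for background and detrended within the array but not scaled between arrays, which the authors took from the scan with Agilent Feature Extraction 10.7.3.1 (version also in the submitters' processing notes). The deposited value table holds log2 values; its differences between arrays followed those of quantile-normalized log2 signals (r 0.9918 to 0.9993, slope 0.9504 to 0.9874 over 21801 probes), the column medians lay between 0 and 0.012, and the value subtracted per probe is not known; it was used as an alternative. Per the labels' protocols, RNA was amplified once with a MessageAmp II kit. That kind of kit primes on poly(A) tails, which replication-dependent histone RNA lacks; how far this set the histone levels was not tested.

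Control and outlier spots were left out, spots of a probe averaged, and log2 processed signals scaled to each array's 75th percentile, which lay between 1451 and 1870 intensity units. No histone probe was saturated. The tissues were compared in limma 3.58.1 (R 4.3.3, data.table version 1.17.8, statmod 1.5.0; lmFit and eBayes, two-sided), adjusted over 16365 genes and called at an adjusted p under 0.05. The number of arrays limits the precision. The script was tested on simulated data. Probes were named by accession through RefSeq (26412 of 39429), and members kept the name in the file, 46 of 48 being matched. One further probe, whose accession is a clustered histone gene under another name, was not a member. Sequences were compared without gaps in Python 3.11.15, and figures drawn with matplotlib 3.10.9.

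The members, lists and tests were chosen with earlier results of these data known. Named members are those called, up to 4 per histone type, and the 3 brightest per type; of the other lists, the 2 called genes with the largest change and the brightest uncalled gene. Others are named with the reason. Alternatives covered background correction, scaling, filter, probe choice, the value table, the prior, array weights, blocks and single arrays left out.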

Additional observations from a re-analysis of the deposited data

How the results depend on the processing

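The median log2 fold change of the tested members was negative under all 19 alternatives, and the number called depended on them. Against 11 called (9 lower, 2 higher), 7 were called with quantile scaling and 7 in the deposited value table, 3 with no filter on dim probes, 6 with slide as a random block and 0 with slide as a fixed block. In that fixed block the tissues meet on 1 slide only, and the median moved to −0.23. Over all genes, the share called was 15.3% with quantile scaling, 15.3% in the value table and 14.3% with the random block. With no filter it was 5.12%, and the 3 called of 48 members are near that share. Leaving out single arrays gave between 0 called (without heart 4) and 29 (without spleen 4), with medians from −1.42 to −0.92. Without heart 4, 17 were lower and 2 higher at an unadjusted p under 0.05, against 10.3% and 12.8% of all genes. With equal numbers taken as a replicate block, 3 of 43 were called, against 9.7% of all genes. Correlations of same-number deviations were −0.053, 0.04 and 0.009. With 3 arrays per tissue, and slide and tissue partly confounded, they cannot tell whether equal numbers mark 1 animal. Over the 21 named members, the call or its absence stayed the same in 294 results, a call was lost in 98 and gained in 5, and 0 reversed. The 294 include uncalled members, whose lack of a call seldom changed, and all 98 losses fell on the 11 called members. Hist1h2ac kept its call in 16 results and lost it in 2, but these rest on heart signals that were not well above background on any array. Hist1h2ab kept its call in 5 and lost it in 13, and Hist1h4c kept its call in 7 and lost it in 12. Hist1h2ac and Hist1h2ab were not tested with the filter on all 6 arrays. The cause of these changes was not tested. Scaling to the median moved the median of all genes from 0.10 to 0.22 and left 34 of 43 members negative.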
